A study of Mus musculus with 18 samples.

Results

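The lysosome and vacuolar ATPase genes described here are 42 mouse genes chosen by function, as lysosomal and autophagy genes held to be under the control of the transcription factor TFEB: 15 subunits and accessory proteins of the lysosomal proton pump, 5 lysosomal membrane proteins, 10 hydrolases of lipids and sugars with their cofactors, 6 proteases, 2 transcription factors and 4 autophagy genes. The sterol carrier Npc2 is counted with the hydrolases and cofactors. Gene identifiers of the count files were matched to mouse symbols, and 42 of 42 were found among 55487 listed genes. All 42 passed the filter on low counts, with at least 128 counts in every library, and so stand among the 13600 genes tested.

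The 18 RNA-seq libraries form 6 groups of 3, all built on T23, a mouse cell line labelled prostate adenocarcinoma. The isoliquiritigenin co-cultures held T23 cells and fibroblasts and received both enzalutamide, an antiandrogen drug, and isoliquiritigenin, a chalcone found in liquorice. The enzalutamide co-cultures held T23 cells and fibroblasts with enzalutamide, and the enzalutamide cultures held T23 cells with the drug and no fibroblasts. The Sparc-deficient and the wild-type co-cultures held untreated T23 cells beside fibroblasts without or with Sparc, a secreted matrix-binding glycoprotein, and the last group was T23 cells alone. The sample descriptions call the fibroblasts of both enzalutamide co-culture groups human, whereas their titles carry the fibroblast name of the wild-type co-cultures. A species difference and a drug difference therefore cannot be told apart when these groups are set against the untreated ones. The labels give no dose or time, nothing in them says whether the RNA came from T23 cells only or from mixed co-cultures, and nothing says that replicates came from separate cultures, so p-values measure the spread between these libraries, which may be technical.

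The lysosome is an acidic compartment in which proteins, lipids and sugars are broken down. Its acidity comes from the vacuolar ATPase (V-ATPase), a rotary pump whose cytosolic V1 sector hydrolyses ATP and whose membrane-embedded V0 sector carries protons into the lumen. Hydrolases work at this acid pH, and membrane glycoproteins, channels and sterol transporters line the boundary. The basic helix-loop-helix factors TFEB and TFE3 bind a palindromic element in the promoters of many of these genes. Their activity is set mainly by phosphorylation and passage into the nucleus, downstream of the nutrient-sensing kinase mTOR on the lysosome surface, so that their own mRNA need not change.

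Library totals lay between 16.1 and 26.7 M counts, and 18123 to 20154 genes were detected per library. Replicate 2 of the enzalutamide cultures stood apart, with 26.4% of its counts on a single ribosomal RNA gene, against 0.0391% to 0.138% in the other 17 libraries. Sparc is missing from the added fibroblasts by their label but abundant in T23 alone, at 3189 to 3205 CPM. The gene had 2975 to 3099 CPM (normalised counts per M) in the Sparc-deficient co-cultures and 3047 to 3090 CPM in the wild-type co-cultures, a level that checks nothing about the fibroblasts. The defining epithelial markers Epcam, Krt8, Krt18, Krt5, Krt14 and Cdh1 lay under 1 CPM in every library, while Col1a1, a fibroblast collagen, already had 10640 to 10868 CPM in T23 alone. The adenocarcinoma label is thus not borne out by these epithelial markers. Macrophages are rich in lysosomes, and 9 of their markers together summed to 0.156 to 1.09 CPM over the 18 libraries, with Adgre1, C1qa and Tyrobp at 0 in all of them. The index in the sample titles restarts within the enzalutamide co-cultures, whose replicates 2 and 3 stand in the second numbering series together with every isoliquiritigenin library.

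Levels are given as CPM, the counts of a gene per M counts of its library after scaling for library composition. Differences come from edgeR's quasi-likelihood test over 13600 genes in all 18 libraries, as log2 fold changes with standard error and Benjamini-Hochberg adjusted p. A gene is said to have risen or fallen where that adjusted p is under 0.05, and the share of all tested genes past it is given as the background of each comparison.

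Per kilobase of exon, the members spanned a wide range in T23 alone. Psap, the precursor of the saposin activators of sphingolipid breakdown, was the highest at 515 CPM per kb. Lamp1, the main glycoprotein of the lysosomal membrane, followed at 242 CPM per kb, ahead of the cysteine protease Ctsb at 186, the tetraspanin Cd63 at 182 and the autophagy receptor Sqstm1 at 182 CPM per kb. The lowest was Tfeb at 2.93 CPM per kb, below the lysosomal cation channel Mcoln1 at 4.49, the V0 subunit Atp6v0a1 at 4.87 and the sterol exporter Npc1 at 5.11 CPM per kb. Tfe3, at 10.4 CPM per kb, was the more abundant of the pair of transcription factors. On GRCm38, with the gene models of GENCODE M21, the members described most below lie at chr9:59539540-59565109 (Hexa, plus strand), chr11:101009452-101063719 (Atp6v0a1, plus), chr8:13159161-13175338 (Lamp1, plus), chr8:3500457-3515232 (Mcoln1, plus), chrX:134588149-134601125 (Gla, minus), chr11:101070012-101077672 (Naglu, plus), chr12:84754562-84773152 (Npc2, minus) and chr11:109573331-109611967 (Wipi1, minus). Over the 18 libraries the ratio of the highest to the lowest level was widest for Hexa at 2.47 and Atp6v0a1 at 2.16.

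The group with the highest mean level was the isoliquiritigenin co-cultures for 36 of the 42 members, and for 29 of them all 3 of these libraries lay above all 15 others. The Sparc-deficient co-cultures had the lowest mean for 19 members. For 9 members, Atp6v1b2, Atp6v1c1, Atp6v1d, Atp6v0d1, Atp6ap1, Lamp1, Mcoln1, Tpp1 and Sqstm1, all 3 Sparc-deficient libraries lay below all 15 others. For 4 members, Glb1, Naglu, Ctsz and Tfeb, they lay above all 15 others. None of these counts was made over all tested genes. They have no background and describe the members only. The summed level of the V-ATPase subunits and accessory proteins was 1690 to 1742 CPM in the isoliquiritigenin co-cultures, 1311 to 1387 CPM in the enzalutamide co-cultures, 1275 to 1403 CPM in the enzalutamide cultures, 1203 to 1229 CPM in the Sparc-deficient co-cultures, 1282 to 1313 CPM in the wild-type co-cultures and 1297 to 1328 CPM in T23 alone. The summed level of the hydrolases, cofactors and proteases ran the other way with Sparc deficiency, at 5746 to 5855 CPM in the Sparc-deficient co-cultures and 5428 to 5564 CPM in the wild-type co-cultures. The sum over all 42 members overlapped between these groups, at 9850 to 9948 CPM in the Sparc-deficient and 9887 to 9974 CPM in the wild-type co-cultures.

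**Figure D1:**
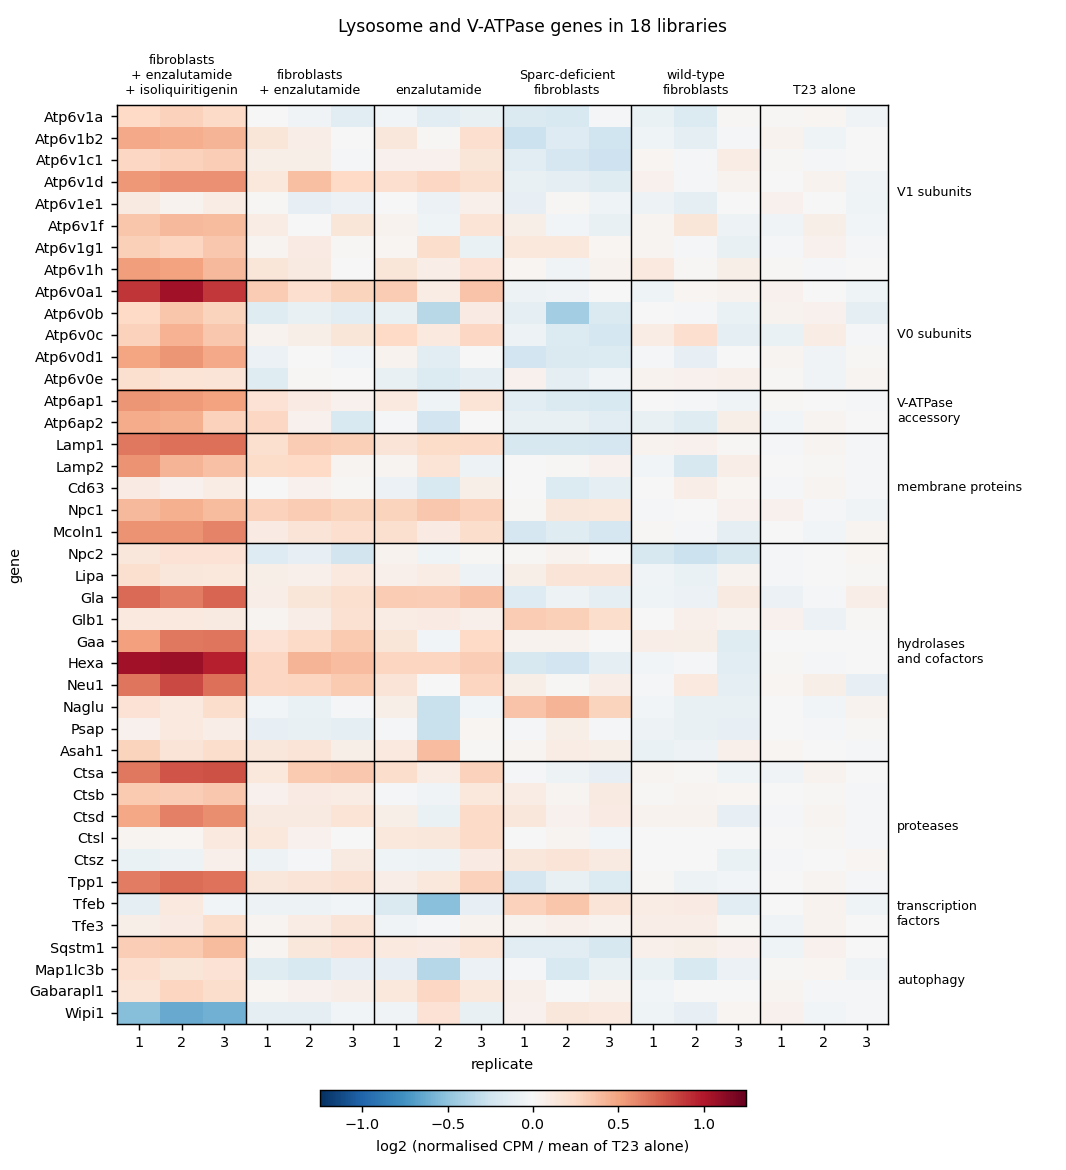
Heat map of the 42 members (rows, by role) in 18 libraries (columns, 3 replicates a group). Colour gives the log2 ratio of normalised CPM to the mean of T23 alone, red for higher and blue for lower; the 3 isoliquiritigenin libraries on the left are red for most members and blue for Wipi1, and the Sparc-deficient libraries are pale blue for many V-ATPase subunits and red for Naglu.

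Adding isoliquiritigenin to enzalutamide moved most members. Against the enzalutamide co-cultures, 31 members were higher and 1 was lower in the isoliquiritigenin co-cultures, 73.8% and 2.38% of the list. Of all tested genes 12.9% were higher and 13.6% lower, 26.5% in all. The median log2 fold change was 0.29 over the members and 0.00 over all tested genes. Within the second numbering series, that is without replicate 1 of the enzalutamide co-cultures, the counts were again 31 higher and 1 lower. In bulk samples of this kind, fewer cells of a type and less RNA per cell cannot be told apart.

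All 5 V0 subunits among the members were higher. Atp6v0a1, the subunit that holds the path of protons through the membrane, had 59.4, 66.1 and 58.9 CPM in the isoliquiritigenin co-cultures, against 39.8, 36.8 and 38.8 CPM in the enzalutamide co-cultures. The 3 values of each group were well apart, and the log2 fold change was 0.67 ± 0.07 (SE), 1.60-fold, with an adjusted p of 6.18e-08. Atp6v0d1, which couples the central stalk to the proteolipid ring, had 100.4, 104.4 and 99.3 CPM in the isoliquiritigenin co-cultures, against 67.9, 71.5 and 70.0 CPM in the enzalutamide co-cultures. It rose 1.45-fold (log2 0.54 ± 0.05, adjusted p 5.12e-08). The proteolipids Atp6v0b and Atp6v0c, which make up the rotating ring, and the small subunit Atp6v0e rose by log2 0.22 to 0.42. Atp6v0c lost its call without replicate 2 of the isoliquiritigenin co-cultures, with an adjusted p of 0.0514.

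Of the 8 V1 subunits 7 rose, by log2 0.24 to 0.39. Among them were the catalytic subunit Atp6v1a (log2 0.32 ± 0.05), the nucleotide-binding partner Atp6v1b2 (0.37 ± 0.05) and the regulatory subunit Atp6v1h (0.39 ± 0.05). Atp6v1e1, a subunit of the peripheral stalks, had a log2 fold change of 0.13 ± 0.05 and an adjusted p of 0.0582. Both accessory proteins rose, Atp6ap1 by log2 0.41 ± 0.05 and Atp6ap2 by 0.35 ± 0.08.

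Of the 5 membrane proteins 3 rose. Lamp1 had 1025, 1045 and 1046 CPM in the isoliquiritigenin co-cultures, against 744, 807 and 795 CPM in the enzalutamide co-cultures, 1.33-fold higher (log2 0.41 ± 0.05, adjusted p 7.02e-07). Mcoln1, the channel that releases calcium from lysosomes, had 50.1, 50.0 and 52.1 CPM in the isoliquiritigenin co-cultures, against 36.5, 38.0 and 39.3 CPM in the enzalutamide co-cultures, 1.34-fold higher (log2 0.42 ± 0.06, adjusted p 6.03e-06). Neither gene's groups overlapped. Lamp2, the receptor of chaperone-mediated autophagy, rose by log2 0.28 ± 0.07. Cd63 and Npc1 had log2 fold changes of 0.06 ± 0.06 and 0.12 ± 0.05, with adjusted p of 0.480 and 0.0836.

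Of the 10 lipid and sugar hydrolases and cofactors 7 rose. Hexa, the alpha subunit of the hexosaminidase that degrades ganglioside, had 196, 198 and 185 CPM in the isoliquiritigenin co-cultures, against 113, 127 and 124 CPM in the enzalutamide co-cultures. It rose 1.59-fold (log2 0.67 ± 0.05, adjusted p 1.58e-09), the smallest p of the 42 members here. Gla, alpha-galactosidase A, had 52.4, 49.9 and 52.9 CPM in the isoliquiritigenin co-cultures, against 33.8, 35.4 and 36.7 CPM in the enzalutamide co-cultures, and rose 1.47-fold (log2 0.55 ± 0.06, adjusted p 4.69e-07). The sialidase Neu1, acid alpha-glucosidase Gaa and the sterol carrier Npc2 rose by log2 0.33 to 0.45. Naglu, an enzyme of heparan sulfate breakdown, rose by 0.22 ± 0.07 and Psap by 0.19 ± 0.06. Those 2 calls were the least firm. Naglu lost its call without replicate 2 of the enzalutamide co-cultures or replicate 3 of the isoliquiritigenin co-cultures (adjusted p up to 0.0761). Psap lost it without any 1 of the enzalutamide co-cultures or without replicate 2 of the isoliquiritigenin co-cultures (adjusted p up to 0.0832). The acid lipase Lipa, beta-galactosidase Glb1 and acid ceramidase Asah1 had log2 fold changes of 0.07, 0.02 and 0.09, which did not pass.

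Of the 6 proteases 4 rose. Tpp1, a tripeptidyl peptidase, had 209, 217 and 215 CPM in the isoliquiritigenin co-cultures, against 148, 150 and 153 CPM in the enzalutamide co-cultures, 1.42-fold higher (log2 0.50 ± 0.05, adjusted p 7.59e-08). Ctsa, the carboxypeptidase that holds Neu1 and Glb1 in a complex, had 281, 306 and 309 CPM in the isoliquiritigenin co-cultures, against 195, 223 and 225 CPM in the enzalutamide co-cultures, 1.39-fold higher (log2 0.48 ± 0.06, adjusted p 1.4e-06). The aspartic protease Ctsd rose by log2 0.43 ± 0.06 and Ctsb by 0.24 ± 0.05. The cysteine proteases Ctsl and Ctsz had log2 fold changes of 0.00 and -0.04.

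Among the autophagy genes the directions split. Sqstm1, the receptor that binds ubiquitinated cargo and is itself degraded by autophagy, had 754, 768 and 806 CPM in the isoliquiritigenin co-cultures, against 627, 675 and 691 CPM in the enzalutamide co-cultures, 1.17-fold higher (log2 0.22 ± 0.05, adjusted p 0.00204). The autophagosome proteins Map1lc3b and Gabarapl1 rose by log2 0.33 ± 0.06 and 0.17 ± 0.05, the second only with replicate 2 of the isoliquiritigenin co-cultures in the fit (adjusted p 0.0529 without it). Wipi1, which binds phosphoinositide on forming autophagosomes, was the single member that fell. It had 85.5, 79.9 and 81.4 CPM in the isoliquiritigenin co-cultures, against 114, 114 and 121 CPM in the enzalutamide co-cultures. It was 1.41-fold lower (log2 -0.50 ± 0.06, adjusted p 9.63e-07), and these 3 libraries lay below all 15 others.

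The mRNAs of the transcription factors did not pass the test. Tfeb had 15.4, 18.1 and 16.2 CPM in the isoliquiritigenin co-cultures, against 15.9, 15.9 and 16.3 CPM in the enzalutamide co-cultures (log2 0.04 ± 0.09, adjusted p 0.773). Tfe3 had 102, 103 and 113 CPM in the isoliquiritigenin co-cultures, against 98.8, 103 and 108 CPM in the enzalutamide co-cultures (log2 0.04 ± 0.05, adjusted p 0.610). The ranges of the groups overlapped for both genes, and leaving out replicate 2 (Tfeb) or replicate 3 (Tfe3) of the isoliquiritigenin co-cultures turned the sign of the difference.

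**Figure D2:**
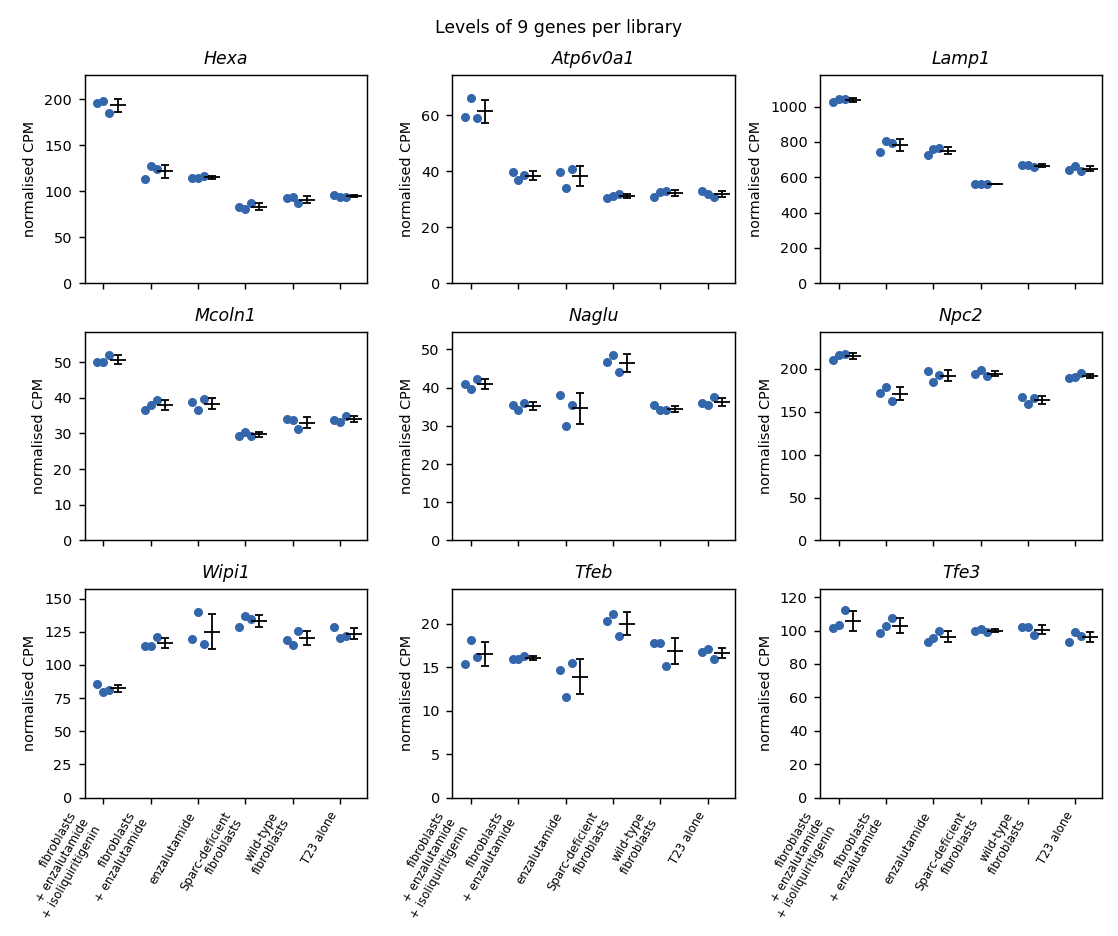
Normalised CPM (vertical axes from 0) of 9 members in each library, with groups along the horizontal axis; points are the 3 replicates and black marks their mean ± SD. The isoliquiritigenin points stand highest for Hexa, Atp6v0a1, Lamp1 and Mcoln1 and lowest for Wipi1, the Sparc-deficient points stand highest for Naglu and lowest for Lamp1, and Npc2 is lower in the wild-type and enzalutamide co-cultures than in the other 4 groups.

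The members' promoters were searched for the core of the element that TFEB and TFE3 recognise. RefSeq windows on GRCm38.p6, from 250 bases before to 50 bases after a transcription start, were at hand for 35 of the 42 members; Atp6v1h, Atp6v1c1, Atp6v1g1, Atp6v1b2, Npc1, Asah1 and Ctsb had none. The 8 letters TCACGTGA, a palindrome and so the same on both strands, stood in a window of 7 of the 35 members, and of 1.12% of 27025 genes with a window. The 6 letters CACGTG, which lie inside the longer motif, stood in 13 members, 37.1%, and in 8.09% of all such genes. The members were chosen as TFEB targets, so an excess of this element over all genes is part of how the list was made and is given as a description. The 7 with the longer motif were Atp6v0d1, Atp6v0e, Atp6v1a, Ctsa, Ctsd, Gla and Mcoln1. Stretches are shown of 4 members that hold the longer motif and of Lamp1, whose window holds the shorter motif 4 times. Those 4 had the smallest p of the 7 in the isoliquiritigenin comparison. Ctsd, which is not shown, had a slightly larger rise there than Mcoln1. Each reads 5′ to 3′ on the gene's strand with the motif in capitals.
Ctsa, chr2:164833731-164833787, plus strand: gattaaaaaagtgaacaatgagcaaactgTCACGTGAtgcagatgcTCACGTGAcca
Gla, chrX:134601164-134601255, minus strand: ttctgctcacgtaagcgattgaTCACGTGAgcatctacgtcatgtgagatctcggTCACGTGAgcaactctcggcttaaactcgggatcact
Mcoln1, chr8:3500418-3500509, plus strand: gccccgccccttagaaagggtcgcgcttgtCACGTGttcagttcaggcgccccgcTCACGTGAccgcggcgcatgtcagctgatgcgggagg
Atp6v0d1, chr8:105566050-105566097, minus strand: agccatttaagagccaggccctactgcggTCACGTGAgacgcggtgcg
Lamp1, chr8:13159070-13159175, plus strand: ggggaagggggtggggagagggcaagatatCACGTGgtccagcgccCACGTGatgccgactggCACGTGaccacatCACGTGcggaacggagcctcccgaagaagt

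The stretches of Ctsa and Gla hold the 8 letters more than once, and that of Mcoln1 holds the longer and the shorter motif. All 7 members with TCACGTGA rose with isoliquiritigenin, with a median log2 fold change of 0.43, and 19 of the 28 members whose windows lack it rose, with a median of 0.27. The windows of Hexa, Atp6v0a1 and Tpp1, 3 of the 5 members with the largest rises, hold neither motif. In the enzalutamide cultures against T23 alone, 3 of the 7 and 8 of the 28 rose, with medians of 0.08 and 0.06. Between Sparc-deficient and wild-type co-cultures 0 of the 7 were higher and 0 lower. The medians there were -0.09 for the 7 and 0.01 for the 28. A match describes letters only and is not a binding site.

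Markers of other cell types moved in the same comparison. The summed level of 8 fibroblast markers was 18093 to 18716 CPM in the isoliquiritigenin co-cultures, against 21517 to 22751 CPM in the enzalutamide co-cultures, and of the 7 tested markers 5 fell and 2 rose. The share of counts on mitochondrial genes was 2.80% to 3.77% in the isoliquiritigenin co-cultures and 1.55% to 2.71% in the enzalutamide co-cultures. The part of these shifts in the members' rise was not tested. The macrophage markers summed to 0.460 to 0.548 CPM in the isoliquiritigenin co-cultures and 0.420 to 0.500 CPM in the enzalutamide co-cultures, at or near 0 in both.

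The rise extended beyond the 42 members. In the same comparison 12.9% of all tested genes were higher and 13.6% lower. In further lists of lysosome and autophagy genes, 46 of 87 tested genes were higher and 3 were lower in the isoliquiritigenin co-cultures, with a median log2 fold change of 0.22. These were 18 higher and 2 lower of 31 further hydrolases and cofactors, 8 higher of 18 membrane proteins, transporters and sorting receptors, 8 higher and 1 lower of 18 autophagy genes, 2 higher of 5 V-ATPase subunits, and 10 higher of 15 genes of the MiT/TFE list, which holds the factor family of TFEB and TFE3, its regulators and feedback targets. Gpnmb, a lysosomal glycoprotein gene known as a target of these factors, had 174, 187 and 188 CPM in the isoliquiritigenin co-cultures, against 81.0, 78.5 and 77.7 CPM in the enzalutamide co-cultures. It rose 2.31-fold (log2 1.21 ± 0.07, adjusted p 5.07e-11). The collagen-degrading protease Ctsk rose 2.06-fold, the V0 subunit Atp6v0e2 rose 2.05-fold and Fnip2, a partner of folliculin, rose 1.50-fold.

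Set against the wild-type co-cultures, the isoliquiritigenin co-cultures had 34 members higher and 1 lower, 81.0% and 2.38% of the list, where 19.2% of all tested genes were higher and 19.9% lower, 39.1% in all. The isoliquiritigenin libraries are the same as in the comparison above, so the result is no separate support. Hexa reached a log2 fold change of 1.09 ± 0.05 (2.13-fold, adjusted p 2.01e-13), Atp6v0a1 0.93 ± 0.07 (1.91-fold) and Ctsa 0.75 ± 0.06 (1.68-fold). Neu1, Tpp1 and Gla rose 1.62-fold to 1.65-fold. Wipi1 was 1.46-fold lower, and Tfeb and Tfe3 had log2 fold changes of -0.03 and 0.07 with adjusted p of 0.821 and 0.257. Of the 87 further genes 54 were higher and 5 lower, led by Gpnmb (2.80-fold higher), the sorting receptor Sort1 (2.17-fold higher), Fnip2 (1.77-fold higher) and Atg9b, an autophagy membrane protein gene (2.61-fold lower). The groups lie in different numbering series; with the series as a term, 21 members were higher and 1 was lower.

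**Figure D3:**
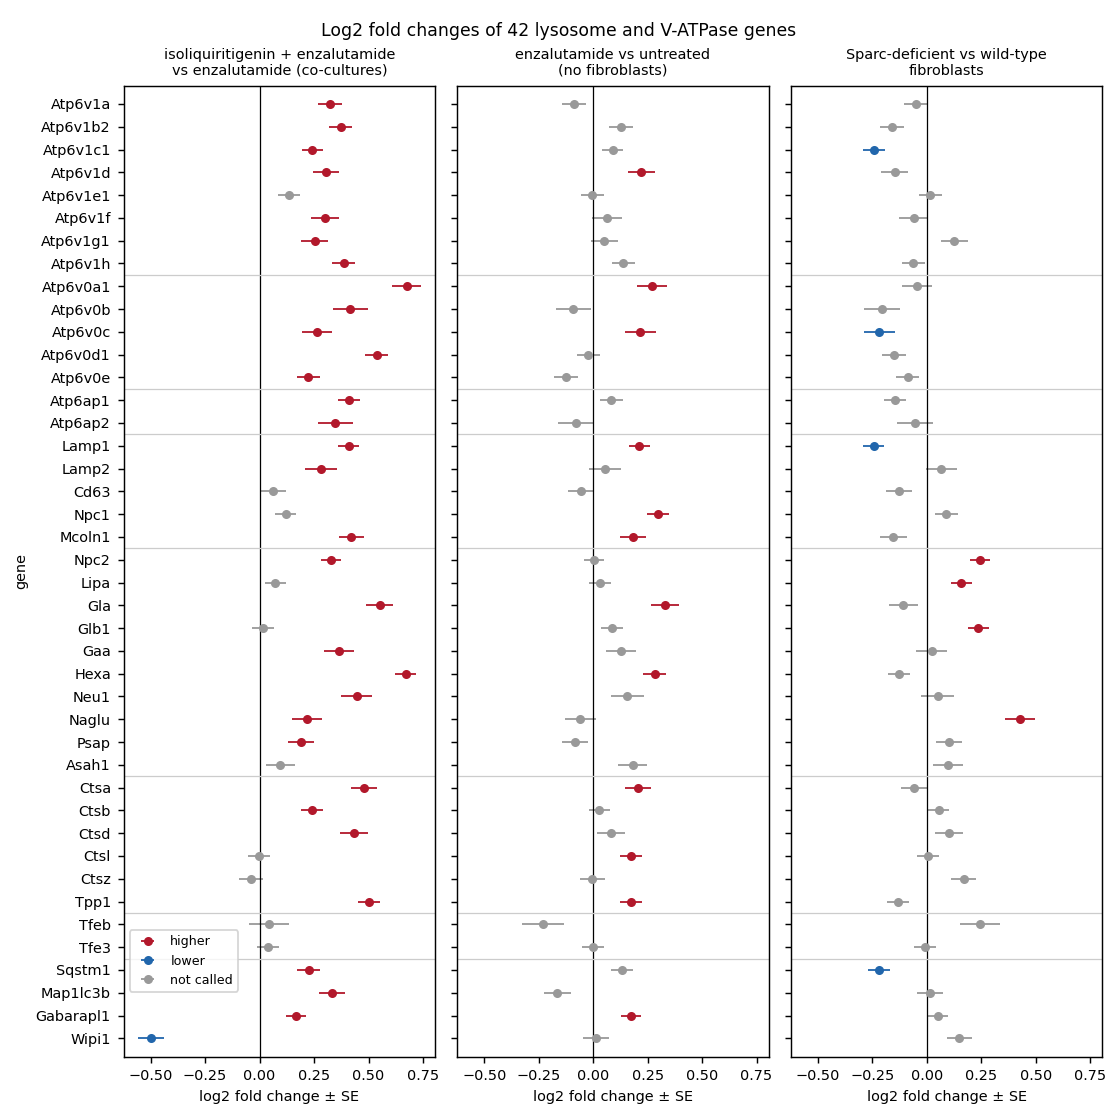
Log2 fold changes (horizontal axes) ± SE of the 42 members, by role from top to bottom, in 3 comparisons; red points rose, blue points fell and grey points did not pass an adjusted p of 0.05. The left panel holds 31 red points and 1 blue, the middle panel 12 red, and the right panel 4 red and 4 blue.

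Enzalutamide without fibroblasts moved a smaller set. In the enzalutamide cultures 12 members were higher than in T23 alone, 28.6% of the list, and none was lower, against 6.84% of all tested genes higher and 5.19% lower, 12.0% in all. The median log2 fold change was 0.08 over the members and 0.00 over all tested genes. Gla had 39.7, 39.6 and 41.1 CPM in the enzalutamide cultures, against 30.5, 31.7 and 33.8 CPM in T23 alone. The groups did not overlap, and Gla rose 1.26-fold (log2 0.33 ± 0.06, adjusted p 0.00141). Npc1, the membrane protein that moves cholesterol out of the lysosome, had 70.0, 72.9 and 70.4 CPM in the enzalutamide cultures, against 60.0, 57.1 and 56.2 CPM in T23 alone, and rose 1.23-fold (log2 0.30 ± 0.05, adjusted p 0.000458). Hexa had 113.8, 114.4 and 116.9 CPM in the enzalutamide cultures, against 95.8, 94.0 and 94.1 CPM in T23 alone, and rose 1.22-fold (log2 0.28 ± 0.05, adjusted p 0.000776). Lamp1 rose 1.16-fold (log2 0.21 ± 0.05, adjusted p 0.00502). These 4 calls stood whichever of the 6 libraries was left out. The fibroblast markers summed to 22064 to 24460 CPM in the enzalutamide cultures, against 26237 to 27248 CPM in T23 alone, with 3 of 7 lower and 1 higher and Lum at or near 0. Neither group held added fibroblasts, so these are levels in T23 cultures. The mitochondrial share was 1.88% to 4.06% in the enzalutamide cultures and 0.824% to 1.11% in T23 alone. The 4.06% was that of replicate 2, the library rich in ribosomal RNA, and replicates 1 and 3 had 1.88% and 2.29%. The part of the markers or of the mitochondrial share in the members' rise was not tested.

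The other 8, Atp6v0a1, Atp6v1d, Atp6v0c, Ctsa, Mcoln1, Gabarapl1, Tpp1 and Ctsl, rose by log2 0.17 to 0.27 and lost their calls in 3 to 5 of the 6 fits that left out a library. Gla, Npc1, Hexa and Lamp1 alone were called without replicate 3 of T23 alone, 6 members without replicate 1 of it, and 8 without replicate 2 of it or without replicate 1 or 3 of the enzalutamide cultures. Without that replicate 3, 7 of the 8 were higher and Map1lc3b was lower. Without replicate 2 of the enzalutamide cultures, the library rich in ribosomal RNA, 12 were called, though not the same 12. In that fit Atp6v1b2 and Gaa took the place of Atp6v1d and Gabarapl1. Tfeb had 14.7, 11.6 and 15.5 CPM in the enzalutamide cultures, against 16.7, 17.2 and 16.0 CPM in T23 alone, and did not pass (log2 -0.23 ± 0.10, adjusted p 0.125). Tfe3 (-0.00 ± 0.05) and Sqstm1 (0.13 ± 0.05) did not pass either. Of the 87 further genes 14 were higher and 3 lower, beside 6.84% of all tested genes higher and 5.19% lower. Gpnmb rose 1.45-fold, Igf2r, the receptor that carries new hydrolases to lysosomes, 1.28-fold and Gnptab, which makes the sorting tag that Igf2r reads, 1.19-fold.

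With fibroblasts present, 10 members were higher and none was lower in the enzalutamide co-cultures than in the wild-type co-cultures, 23.8% of the list, against 3.70% of all tested genes higher and 3.49% lower, 7.18% in all. The median log2 fold change of the members was 0.06. Hexa led again, with 113, 127 and 124 CPM in the enzalutamide co-cultures, against 92.5, 93.6 and 86.6 CPM in the wild-type co-cultures, 1.34-fold higher (log2 0.42 ± 0.05, adjusted p 1.31e-05). Npc1 rose 1.22-fold, Neu1 and Ctsa 1.21-fold, Atp6v0a1 1.20-fold and Gaa 1.19-fold. Hexa, Npc1, Ctsa and Lamp1 kept their calls in each of the 6 fits that left out a library. The other 6 calls were each lost in 3 to 5 of those fits. Without any 1 of the wild-type co-cultures 6 members were called, and 5 were called without replicate 2 or without replicate 3 of the enzalutamide co-cultures. Those are the libraries of the second numbering series. With the series as a term only Hexa was called (log2 0.32, adjusted p 0.0126), while the members' median log2 fold change was 0.074. In libraries of the first series only, the enzalutamide co-cultures are 1 library, assumed to vary like the other groups; Hexa was again the single call there (log2 0.31, adjusted p 0.0341), with a median of 0.072. The fibroblast markers summed to 21517 to 22751 CPM in the enzalutamide co-cultures, against 25327 to 26519 CPM in the wild-type co-cultures, with 3 of 7 lower and 1 higher. The mitochondrial share was 1.55% to 2.71% in the enzalutamide co-cultures and 0.853% to 1.34% in the wild-type co-cultures. Their part in the members' rise was not tested. Tfeb, Tfe3 and Sqstm1 had log2 fold changes of -0.08, 0.03 and 0.06. Of the 87 further genes 15 were higher and 4 lower. Igf2r, Gnptab and the asparaginyl protease gene Lgmn rose 1.21-fold to 1.22-fold, and Atg9b fell 1.46-fold.

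The 2 enzalutamide comparisons share no library. Of the 12 members that rose without fibroblasts and the 10 that rose with them, 8 were the same, 66.7% and 80.0% of the lists. The log2 fold changes of the 42 members correlated with r = 0.76 and rho = 0.77 across genes, where all 13600 genes gave r = 0.40 and rho = 0.52; genes are not independent replicates. The difference between the enzalutamide responses with and without fibroblasts was tested as an interaction and called no member, beside 0.0221% of all tested genes (0.0147% higher and 0.00735% lower); DESeq2 called none either, and no member had an unadjusted p under 0.05. The members' interaction terms lay between -0.20 and 0.19. Between the enzalutamide co-cultures and the enzalutamide cultures no member was called by edgeR in all 18 libraries, against 2.08% of all tested genes (1.14% higher and 0.941% lower). There 4 members had an unadjusted p under 0.05, and DESeq2 called Npc2 lower (log2 -0.17, adjusted p 0.00667). So did edgeR without replicate 2 of the enzalutamide cultures, the library rich in ribosomal RNA (log2 -0.19, adjusted p 0.0258). Tfeb, Tfe3 and Sqstm1 had log2 fold changes of 0.18, 0.10 and -0.01. Of the 87 further genes Sort1 was 1.29-fold higher and Atg9b 1.29-fold lower, calls that were lost in 3 and 2 of the 6 fits without a library.

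Fewer members passed the test with Sparc-deficient fibroblasts. Against the wild-type co-cultures, 4 members were higher and 4 were lower in the Sparc-deficient co-cultures, 9.52% of the list each way, beside 6.72% of all tested genes higher and 4.79% lower, 11.5% in all. A share near that background is not a result about the whole list, and the median log2 fold change was -0.03. The 4 that rose all stood in the class of hydrolases and cofactors, with which the sterol carrier Npc2 is counted. Naglu had 46.6, 48.6 and 44.0 CPM in the Sparc-deficient co-cultures, against 35.4, 34.0 and 34.1 CPM in the wild-type co-cultures. It rose 1.35-fold (log2 0.43 ± 0.07, adjusted p 0.000163). Npc2, the soluble carrier that hands cholesterol to Npc1, had 194, 198 and 192 CPM in the Sparc-deficient co-cultures, against 167, 159 and 166 CPM in the wild-type co-cultures, and rose 1.19-fold (log2 0.25 ± 0.05, adjusted p 0.000768). Glb1 had 112, 111 and 105 CPM in the Sparc-deficient co-cultures, against 90.8, 94.4 and 93.3 CPM in the wild-type co-cultures, and rose 1.18-fold (log2 0.24 ± 0.05, adjusted p 0.00245). Lipa rose 1.12-fold, a call that was lost without replicate 1 or 2 of the wild-type or replicate 2 or 3 of the Sparc-deficient co-cultures (adjusted p up to 0.173).

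The 4 that fell belonged to other classes. Lamp1 had 563, 563 and 561 CPM in the Sparc-deficient co-cultures, against 668, 672 and 657 CPM in the wild-type co-cultures, 1.18-fold lower (log2 -0.24 ± 0.05, adjusted p 0.00141). Atp6v1c1, the subunit that takes part in joining V1 to V0, had 70.3, 67.1 and 64.9 CPM in the Sparc-deficient co-cultures, against 79.2, 77.1 and 83.0 CPM in the wild-type co-cultures, 1.18-fold lower (log2 -0.24 ± 0.05, adjusted p 0.00202). Sqstm1 had 553, 559 and 531 CPM in the Sparc-deficient co-cultures, against 638, 642 and 634 CPM in the wild-type co-cultures, 1.16-fold lower (log2 -0.22 ± 0.05, adjusted p 0.00638). Lamp1, Atp6v1c1 and Sqstm1 did not overlap between the groups, and their calls stood whichever library of the comparison was left out. Atp6v0c, with 64.4, 59.6 and 57.8 CPM in the Sparc-deficient co-cultures against 71.4, 77.8 and 62.1 CPM in the wild-type co-cultures, did overlap, and its call (adjusted p 0.048) was lost without the same 4 libraries as that of Lipa (adjusted p up to 0.337). By class, 13 of the 15 V-ATPase genes had negative log2 fold changes, most of them short of the threshold, with medians of -0.15 for V0, -0.06 for V1 and -0.10 for the accessory proteins, while the median of the hydrolases was 0.10; the difference between classes was not tested. The fibroblast markers summed to 27196 to 29065 CPM in the Sparc-deficient co-cultures, against 25327 to 26519 CPM in the wild-type co-cultures, with 1 of 7 higher, and their part in these differences was not tested. The count of calls rose to 7 higher and 8 lower when replicate 2 of the enzalutamide cultures, no part of this comparison, was left out of the fit.

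Tfeb had 20.3, 21.2 and 18.6 CPM in the Sparc-deficient co-cultures, against 17.8, 17.8 and 15.1 CPM in the wild-type co-cultures. The groups did not overlap, but the difference did not pass (log2 0.24 ± 0.09, adjusted p 0.0921); it did without replicate 2 of the enzalutamide cultures (adjusted p 0.0419). Tfe3 had a log2 fold change of -0.01 ± 0.05. Of the 87 further genes 8 were higher and 14 lower, beside 6.72% of all tested genes higher and 4.79% lower. They included 7 higher and 4 lower of 31 hydrolases and cofactors and 6 lower of 15 genes of the MiT/TFE list. Gpnmb had 34.8, 36.6 and 39.8 CPM in the Sparc-deficient co-cultures, against 64.6, 71.6 and 59.3 CPM in the wild-type co-cultures, 1.76-fold lower (log2 -0.82 ± 0.07, adjusted p 3.94e-08). Ctsk was 1.63-fold lower. Lgmn was 1.30-fold higher and Pla2g15, a lysosomal phospholipase, 1.44-fold higher.

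Against T23 alone, the Sparc-deficient co-cultures had 2 members higher and 8 lower, 4.76% and 19.0% of the list, beside 6.10% of all tested genes higher and 3.65% lower, 9.74% in all. Naglu rose 1.28-fold (log2 0.35 ± 0.07, adjusted p 0.00132) and Glb1 1.21-fold (log2 0.28 ± 0.05, adjusted p 0.00064). Lamp1 fell 1.15-fold (log2 -0.21 ± 0.05, adjusted p 0.00659). These 3 calls stood whichever of the 6 libraries was left out. Atp6v1b2 (-0.23 ± 0.05), Atp6v1c1 (-0.20 ± 0.05), Atp6v0d1 (-0.19 ± 0.05), Mcoln1 (-0.19 ± 0.06), Hexa (-0.19 ± 0.05), Atp6ap1 and Tpp1 fell too. Each of these 7 lost its call in 1 to 6 of the 6 fits without a library, with 3 members called without replicate 1 of T23 alone, 5 without replicate 3 of it and 6 without any 1 of the other 4 libraries. Sqstm1 had a log2 fold change of -0.16 ± 0.05 and an adjusted p of 0.0542. Tfe3 had 0.05 ± 0.05, and Tfeb had 0.27 ± 0.09 with an adjusted p of 0.0700. The Sparc-deficient libraries are shared with the comparison above. Of the 87 further genes 5 were higher and 10 lower, among them Lgmn 1.30-fold higher and Ctsk, Gpnmb and Fnip2 1.69-fold, 1.61-fold and 1.31-fold lower.

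Wild-type fibroblasts on their own left nearly every member below the threshold. In the wild-type co-cultures 0 members were higher and 1 was lower than in T23 alone, 2.38% of the list, where 0.257% of all tested genes were higher and 0.257% lower, 0.515% in all; by unadjusted p under 0.05 the count was also 1. That member was Npc2, with 167, 159 and 166 CPM in the wild-type co-cultures, against 189, 191 and 195 CPM in T23 alone, 1.17-fold lower (log2 -0.22 ± 0.05, adjusted p 0.0223). The groups did not overlap, yet leaving out any 1 of the 6 libraries took the call away, with an adjusted p of up to 0.161. Npc2 also had 172, 179 and 163 CPM in the enzalutamide co-cultures, against 198, 185 and 193 CPM in the enzalutamide cultures (log2 -0.17 ± 0.05, adjusted p 0.0543). In the Sparc-deficient co-cultures it stood within 0.02 on the log2 scale of T23 alone. Tfeb, Tfe3 and Sqstm1 had log2 fold changes of 0.02, 0.06 and 0.06. None of the 87 further genes was called, and 8 had an unadjusted p under 0.05.

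The Sparc comparison and the isoliquiritigenin comparison share no library, so their members can be set side by side. All 4 members that were lower with Sparc-deficient fibroblasts, Lamp1, Atp6v1c1, Sqstm1 and Atp6v0c, were higher with isoliquiritigenin. Of the 4 that were higher with Sparc-deficient fibroblasts, Naglu and Npc2 were higher with isoliquiritigenin too, while Glb1 and Lipa did not pass there. These 6 are 75.0% of the 8 members called in the Sparc comparison and 18.8% of the 32 called in the isoliquiritigenin comparison. Among all 42 members 73.8% were higher with isoliquiritigenin, so 75.0% is near the share of the whole list. Rises among those 8 are therefore not a result about them. Across the 42 members the log2 fold changes of the 2 comparisons correlated with r = -0.46 and rho = -0.50, and across all 13600 genes with r = -0.19 and rho = -0.17. The enzalutamide response without fibroblasts correlated with the isoliquiritigenin response at r = 0.35 and rho = 0.35 across the members, and at r = 0.08 across all genes. Of its 12 members that rose 10 also rose with isoliquiritigenin, where 73.8% of all members did. The 2 exceptions were Npc1 and Ctsl.

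**Figure D4:**
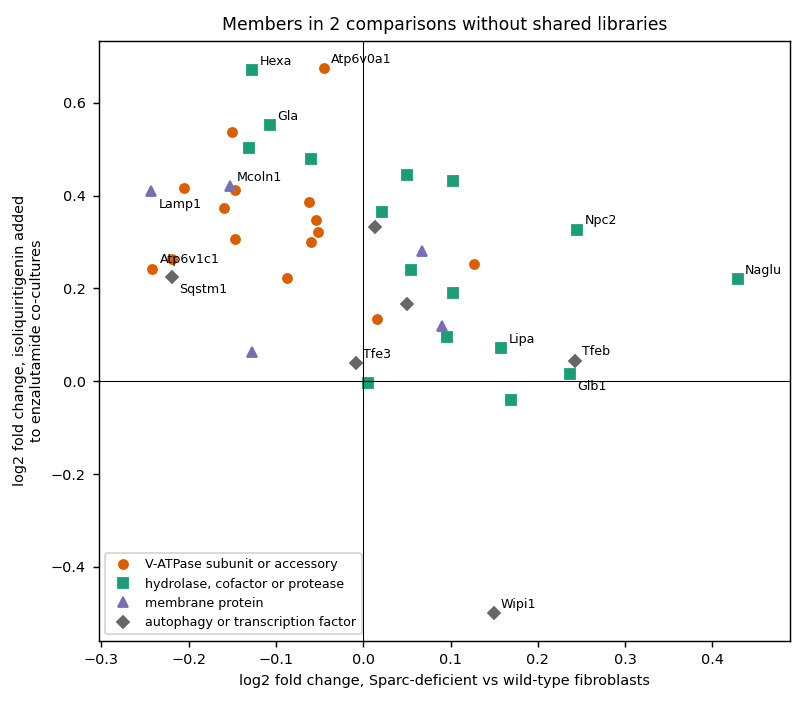
Each point is 1 of the 42 members, with its log2 fold change in Sparc-deficient against wild-type co-cultures (horizontal) and in isoliquiritigenin against enzalutamide co-cultures (vertical); symbols give the class. Most V-ATPase points lie left of 0 and above 0, with Lamp1 and Sqstm1 among them, Naglu and Npc2 lie at the upper right, and Wipi1 is the single point far below 0.

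For 15 members the annotated exons share bases with another annotated gene, 13 of them with a gene on the opposite strand. Ctsd, Ctsl and Glb1 share bases with a gene on the same strand. The libraries were stranded per the labels, but the strand setting of the counting is not given in the sources used here, so the counts of these members are uncertain by the reads that such neighbours contribute. Hexa, Lamp1, Ctsa and Sqstm1 are among them. Atp6v0a1, Gla, Tpp1, Mcoln1, Naglu, Npc2 and Wipi1 are not.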

How the data were processed

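Total RNA had been made into stranded polyA libraries and run on a NextSeq 550, per the labels' protocols. Each deposited file lists raw counts of 1 library by gene. The submitters' processing notes name featureCounts 2.0, STAR 2.6.1d, cutadapt 2.9 and FastQC 0.11.9 with bcl2fastq 2.20.0.422, and the build GRCm38, as what the authors used to make these counts. DESeq2 is named there without a version. The annotation release and the strand setting of the counting are not given in the sources used here. Symbols, exon lengths and gene positions came from GENCODE M21 on GRCm38, which paired 55227 of 55487 identifiers; the other 260 held 0.00552% of the counts. Promoter windows came from RefSeq on GRCm38.p6.

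Genes were kept with the edgeR filter filterByExpr at a minimum count of 10. TMM-scaled counts of all 18 libraries were fitted with edgeR 4.0.16 (limma 3.58.1, R 4.3.3) as a quasi-likelihood model with a mean per group and 12 residual degrees of freedom. The biological coefficient of variation was 7.03%. Adjusted p are Benjamini-Hochberg values over 13600 genes. The standard error is the size of the log2 fold change divided by the square root of F. The fit was tested on simulated data with known changes.

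Precision follows from depth: 3 counts, the limit that a count of 0 allows, are 0.112 to 0.186 CPM, for counting error only. Replicates spread more than counting error, with a chi-square per degree of freedom of 2.59 to 13.2 between replicates, and 621 to 630 for pairs with the library rich in ribosomal RNA. Same-numbered libraries did not deviate together: correlations ran from -0.144 to 0.0982, and none of 15 pairs of groups had them all over 0.1, so the numbers are not taken as pairs.

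The members and gene lists were chosen with earlier results of these data known. Up to 6 called members with the largest rises and up to 6 with the largest falls were given values in each comparison, with Tfeb, Tfe3 and Sqstm1 whatever their values and up to 4 further genes with the smallest p. Other members given values were named after their values were seen. Some genes of these lists are not reported here. The alternatives were median-ratio size factors, no filter on low counts, DESeq2 1.42.0, the replicate block, the numbering series as a term, fits of the compared groups only, each library left out in turn, and libraries of the first numbering series only, which was chosen after seeing the data.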

Additional observations from a re-analysis of the deposited data

How the results depend on the processing

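Of 915 values for single genes under alternatives, over 69 results, 808 kept their direction and their side of the threshold and 22 changed sign, each a difference that was not called. Counts of called members moved as follows, and the cause was not tested. Enzalutamide cultures against T23 alone gave 7 with no filter on low counts and 4 with only the compared groups in the fit. Enzalutamide against wild-type co-cultures gave 1 with the numbering series as a term and 1 in libraries of the first series only. DESeq2 called 1 between enzalutamide co-cultures and cultures, and isoliquiritigenin against wild-type co-cultures gave 22 with the series as a term.

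With a library left out, the counts ran from 29 to 33 for isoliquiritigenin against enzalutamide co-cultures, 33 to 36 for isoliquiritigenin against wild-type co-cultures, 4 to 12 for enzalutamide cultures, 5 to 13 for enzalutamide against wild-type co-cultures, 0 to 1 for enzalutamide co-cultures against cultures, 6 to 15 and 3 to 13 for Sparc-deficient co-cultures against wild-type co-cultures and against T23 alone, and 0 to 1 for wild-type co-cultures. The upper ends of the Sparc-deficient ranges, and of enzalutamide against wild-type co-cultures, came without the library rich in ribosomal RNA. The interaction stayed at 0.

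With the replicate block the counts in the same order were 32, 35, 10, 9, 0, 6, 8 and 1, and 0 for the interaction; replicates share only a number.

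With the series as a term and in the first series only, log2 fold changes in enzalutamide against wild-type co-cultures were -0.026 and -0.028 for Tfe3 and -0.026 and -0.028 for Sqstm1, and the interaction of Tfe3 was -0.024 and -0.023. Tfe3 was -0.016 in isoliquiritigenin against wild-type co-cultures with the series as a term. With a library left out, Tfeb ran from -0.022 to 0.096 in isoliquiritigenin against enzalutamide co-cultures, from -0.10 to 0.021 in isoliquiritigenin against wild-type co-cultures and from -0.020 to 0.093 in wild-type co-cultures against T23 alone. Tfe3 ran from -0.0078 to 0.073 in isoliquiritigenin against enzalutamide co-cultures, from -0.032 to 0.020 in enzalutamide cultures against T23 alone and from -0.027 to 0.0077 in Sparc-deficient against wild-type co-cultures. Sqstm1 ran from -0.042 to 0.028 in enzalutamide co-cultures against cultures. Groups of 3 limit all calls.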

Other observations

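Of the 15 tested genes of the MiT/TFE list, 6 were lower and 0 higher with Sparc-deficient than with wild-type fibroblasts, beside 4.79% of all tested genes lower, and 10 were higher and 0 lower in the isoliquiritigenin than in the enzalutamide co-cultures, beside 12.9% of all tested genes higher. The 2 comparisons share no library, and the genes named here were singled out after their values were seen. The 6 genes that were lower with Sparc-deficient than with wild-type fibroblasts were Gpnmb, Flcn, Fnip2, Rragc, Lamtor1 and Lamtor3. All 6 were higher in the isoliquiritigenin than in the enzalutamide co-cultures. Flcn, folliculin, acts on the Rag GTPases that hold these factors in the cytoplasm. It had 32.3, 31.4 and 31.4 CPM in the Sparc-deficient co-cultures, against 44.3, 40.3 and 38.4 CPM in the wild-type co-cultures, 1.29-fold lower (log2 -0.37 ± 0.07, edgeR adjusted p 0.00088). It had 64.9, 65.8 and 63.6 CPM in the isoliquiritigenin co-cultures, against 42.7, 40.8 and 42.6 CPM in the enzalutamide co-cultures, 1.54-fold higher (log2 0.62 ± 0.07, adjusted p 2.24e-07). Neither pair of groups overlapped. Rragc, a Rag GTPase, was 1.13-fold lower with Sparc-deficient fibroblasts and 1.29-fold higher with isoliquiritigenin. Of the falls with Sparc-deficient fibroblasts, those of Gpnmb and Flcn stood whichever library of the comparison was left out. Fnip2 lost its call without replicate 1 and Rragc without replicate 2 of the Sparc-deficient co-cultures (adjusted p 0.0570 and 0.0717). Lamtor1 and Lamtor3, scaffold proteins that tether the Rag GTPases, each lost theirs in 5 of the 6 such fits.

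Mitf encodes the factor MITF of the same family. It had 7.17, 8.43 and 7.07 CPM in the enzalutamide cultures, against 5.03, 5.99 and 4.74 CPM in T23 alone, 1.42-fold higher (log2 0.50 ± 0.11, edgeR adjusted p 0.00414). With isoliquiritigenin it had 7.93, 7.40 and 7.92 CPM, against 7.89, 8.50 and 7.56 CPM in the enzalutamide co-cultures, and did not pass (log2 -0.04 ± 0.10, adjusted p 0.808). Between Sparc-deficient and wild-type co-cultures its log2 fold change was 0.00 ± 0.11.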
